A study of Mus musculus with 8 samples.

Results

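The 40 genes described here encode parts of the primary cilium and of intraflagellar transport (IFT), the motor-driven movement of cargo along the ciliary shaft. They were taken by gene symbol from a list of ciliary genes on which Smoothened signalling depends. No measured value entered that rule, but the list was chosen with earlier results of these data known. All 40 were among the 49671 gene identifiers of the count table, and all 40 were among the 20162 genes expressed highly enough to be tested. The cells were GLI2+ stromal cells of the adult mouse lung, sorted as live yellow fluorescent cells after enzymatic digestion of the whole lung, and polyadenylated RNA was sequenced. Control mice (4 animals) were Gli2creERT2-tdt:R26RYFP, which carry a tamoxifen-inducible Cre recombinase driven from Gli2 and a Cre-dependent YFP reporter. SmoM2 mice (4 animals) were Gli2creERT2-tdt:R26RYFP/SmoM2, which carry in addition a Cre-dependent SmoM2, an activated form of Smoothened. The SmoM2 mice received intraperitoneal tamoxifen on 5 days, at a daily dose of 200 mg per kg. The dosing of the controls and the time between tamoxifen and sorting are not given in the sources used here. In both groups the sort was aimed at cells in which the Gli2-driven Cre had acted, so other stroma was not targeted. Markers of other cell types were also found in the libraries, with the values given below.

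The primary cilium is a solitary, non-motile projection that most stromal cells build on a centriole when they leave the cell cycle. In vertebrates the Hedgehog pathway runs through it: without ligand, Patched keeps Smoothened out of the ciliary membrane, and with ligand, or with an activating mutation such as SmoM2, Smoothened accumulates there and the Gli proteins that pass through the tip are released as activators. IFT-B proteins with kinesin-2 carry cargo towards the tip, IFT-A proteins with dynein-2 bring it back, the BBSome loads membrane proteins for export, and the transition zone at the base decides what enters.

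Library totals ran from 91.6 to 111.6 M count units, or 18.3 to 22.3 M fragments if each adds 5 units, with 23581 to 24801 genes above 0. Smo itself stood at 124 ± 13.3 CPM (counts scaled to library size; SD, n = 4) in the controls, and at 129 ± 8.80 CPM (SD, n = 4) with SmoM2. Gli1, the usual readout of the pathway, stood at 99.3 ± 32.9 and 101 ± 21.5 CPM (SD, n = 4 each), and neither Gli1 nor the pathway targets Ptch1 and Hhip differed at an unadjusted p under 0.05. Control libraries 1 and 3 and SmoM2 libraries 1 and 2 came from males and the other 4 from females, as read from Xist and Y-linked genes. The stromal markers were abundant in every library, with a summed level of 15856 to 31531 CPM in control and 18886 to 31446 CPM in SmoM2 cells. Summed epithelial markers were 270 to 1278 CPM in control and 200 to 774 CPM in SmoM2 cells, endothelial markers 64.1 to 154 and 61.9 to 120 CPM, and immune markers 434 to 642 and 450 to 1271 CPM. Gene by gene, 7 of 8 epithelial markers were lower in SmoM2 cells, 2 of them (Krt18 and Krt8) at an unadjusted p under 0.05, and 5 of 6 endothelial markers were lower, 2 of them (Esam and Kdr) at that p. Of the immune markers 5 of 6 were higher, with 0 at that p. The 6 mesothelial markers summed to 169 to 406 CPM in control and 81.8 to 160 CPM in SmoM2 cells, with no overlap, and 5 of the 6 were lower at an unadjusted p under 0.05. The part of these other cell types in the ciliary values was not tested. In these bulk samples fewer cells of a type and less RNA per cell cannot be told apart.

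No ciliary gene was called different between SmoM2 and control cells, and for most of them the error was small enough to bound the difference within 1.5-fold. No member differed between the genotypes at an adjusted p under 0.05 (edgeR's quasi-likelihood test with Benjamini-Hochberg adjustment; smallest adjusted p of a member 0.9999). The same test called 0 of all 20162 genes, a background of 0%. DESeq2 called 67 genes, none of them a member (smallest adjusted p of a member 0.752, Tctn3). At an unadjusted p under 0.05 edgeR had 1 of 40 members, Tctn3, against 3.75% of all genes tested. In 1 of 40 members, Ift52, the values of the genotypes did not overlap, against 2.44% of all genes tested, so both counts were near the background. The fitted value was higher in SmoM2 cells for 15 members and lower for 25, and the median log2 fold change was -0.03, beside -0.0042 over all genes tested. Without SmoM2 library 4 the members were 20 higher and 20 lower, with a median of 0.0016.

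The 95% interval of the genotype difference lay wholly inside a 1.5-fold change in either direction for 36 of 40 members (90%). Over all genes tested the share was 41.2%. Among those averaging at least 5 CPM the share was 35 of 37 members (94.6%), beside 69.0% of 11395 genes. For 39 of the 40 members the interval lay inside a 2-fold change. The 4 members whose interval reached past 1.5-fold were the transition zone genes Tctn3 and Cc2d2a and the chaperonins Bbs10 and Bbs12, and Bbs10 alone reached past 2-fold. Bbs5 lay just inside the 1.5-fold limit, with an interval of -0.58 to 0.17.

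**Figure D1:**
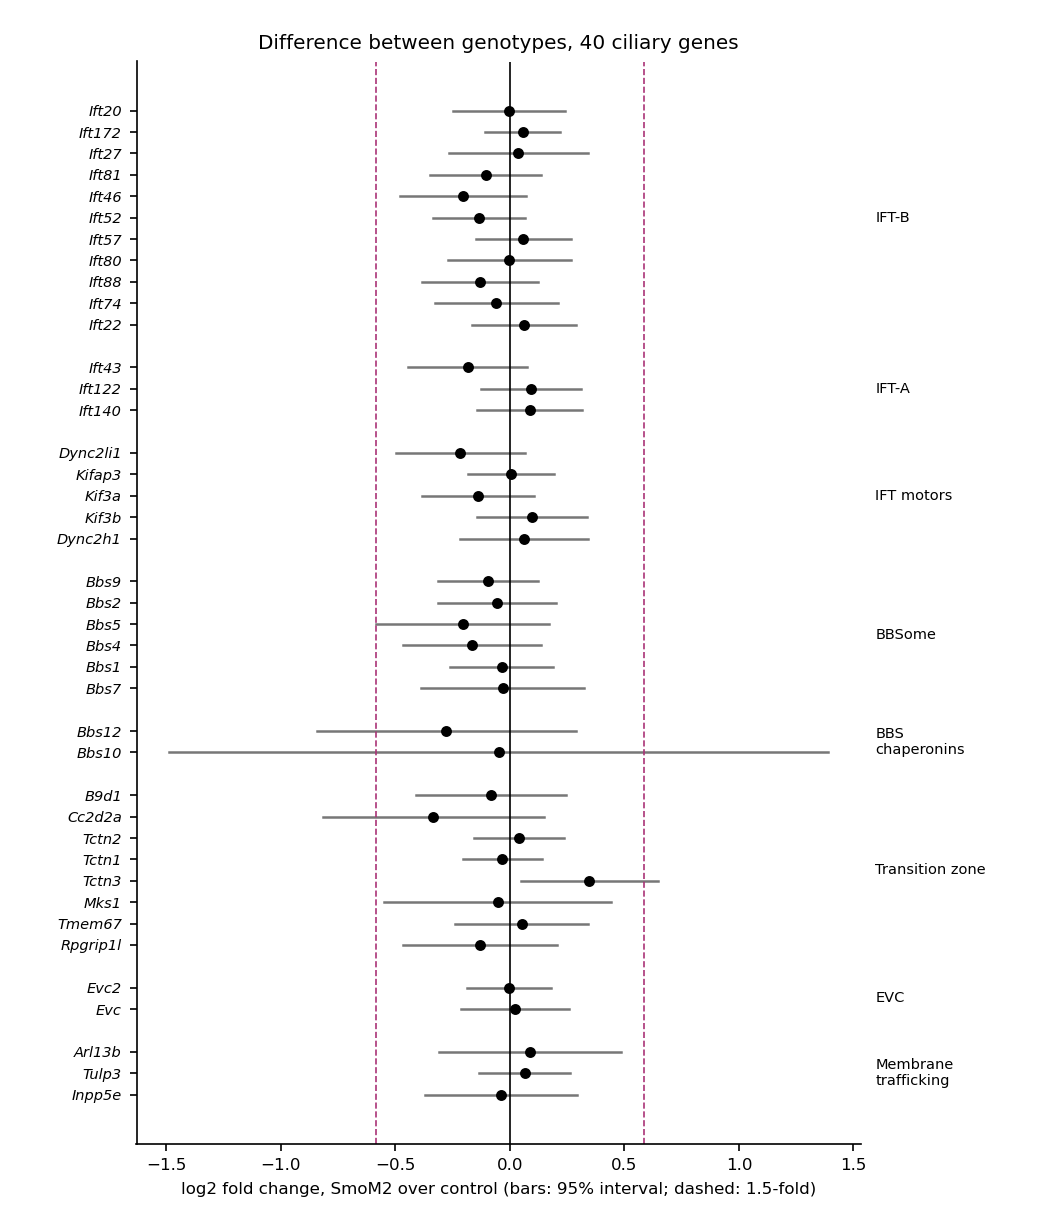
Difference between SmoM2 and control cells for the 40 ciliary genes, grouped by role. Points are log2 fold changes from edgeR, bars are 95% intervals over 4 and 4 mice, and dashed lines mark a 1.5-fold change. The bars of 36 genes stay between the dashed lines, Tctn3 is the only one that leaves out 0, and Bbs10 has the widest bar.

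The levels of the members, by contrast, spanned a wide range. Divided by exon length, the median member stood at 6.50 CPM per kb, above the median of 3.29 CPM per kb over the 20073 tested genes with a length. The highest was Ift20, which links the Golgi to the cilium, at 26.1 CPM per kb, followed by Evc2 at 21.1, Ift43 at 16.2 and Evc at 14.9 CPM per kb. The lowest were the chaperonins Bbs10 and Bbs12, at 0.370 and 1.31 CPM per kb, then Rpgrip1l, a scaffold of the transition zone, at 1.37 CPM per kb. Members of a single complex were not at equal levels: the IFT-B genes ran from 3.04 CPM per kb for Ift22 to that of Ift20, and the motor genes from 2.14 CPM per kb for Dync2h1 to 13.9 CPM per kb for Dync2li1, the heavy and light intermediate chains of dynein-2. Using the longest transcript in place of the union of exons moved no member by more than 3 ranks.

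**Figure D2:**
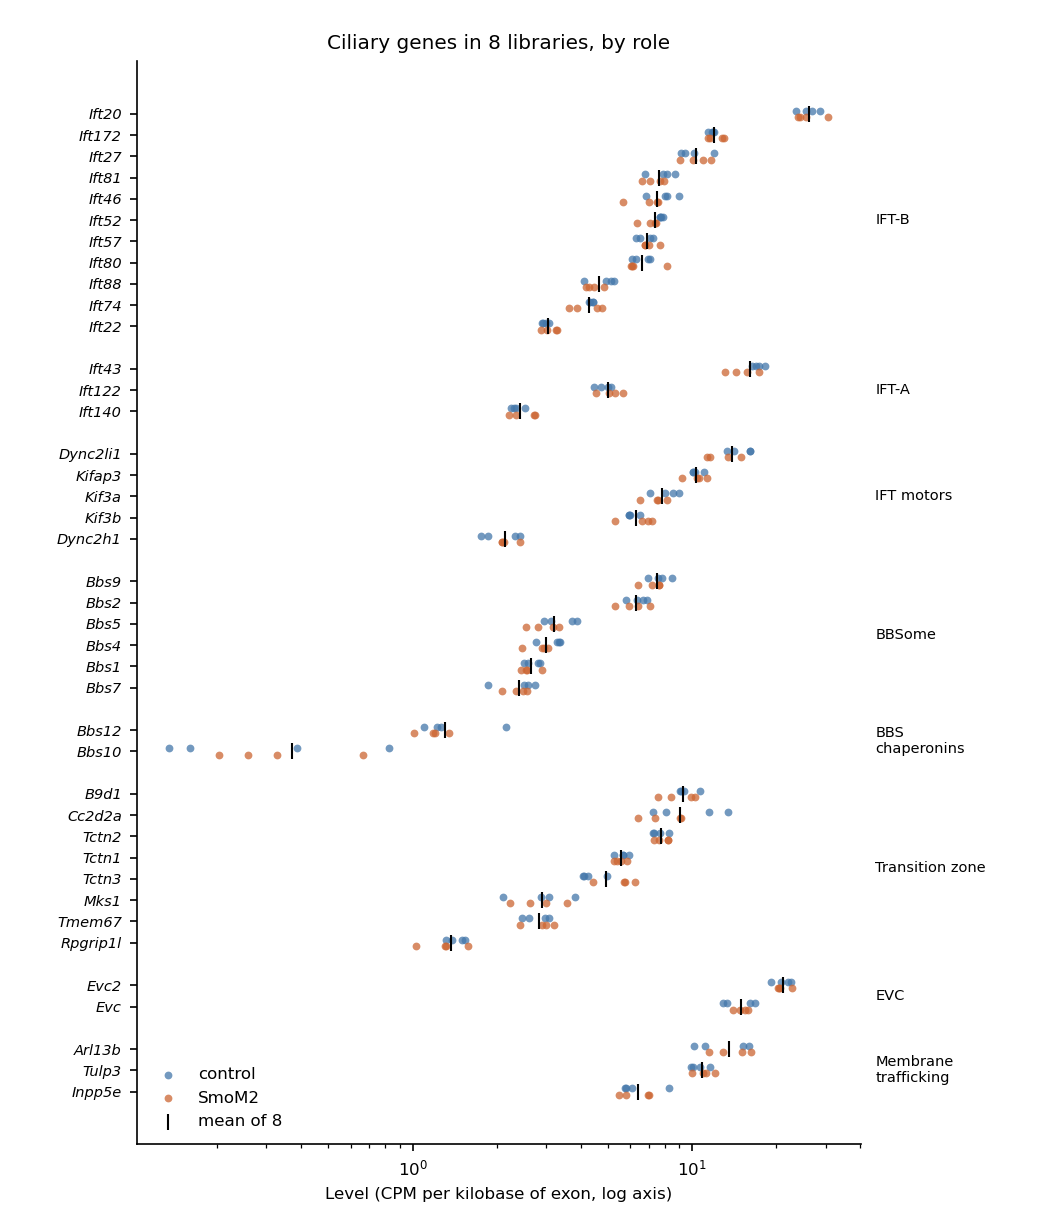
Level of each ciliary gene in each of the 8 libraries, in CPM per kb of exon on a log axis, with control in blue, SmoM2 in orange and a bar at the mean of all 8. Genes are sorted by level within each role. The blue and orange points interleave in nearly every row, and the span from Bbs10 at 0.370 to Ift20 at 26.1 is far wider than the spread within a row.

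Ciliary genes are known targets of RFX transcription factors, which bind the X-box, an inverted repeat. The promoter windows of the members (RefSeq, GRCm38.p6, 250 bases before to 50 after the start) were searched on both strands for GTNNCC, any 2 letters, and GGNNAC, a pattern that reads the same on either strand. A window was matched for 35 of the 40 members, and not for Dync2li1, Tmem67, Ift80, Ift122 and Ift81. The windows of Ift46, Dync2h1 and Bbs2 did not include the gene start given by GENCODE, so that start was not searched. The motif was in 8 of the 35 (22.9%), against 583 of 27025 genes with a window (2.16%). The 9 matches are shown with up to 8 bases on either side, 5′ to 3′ on the strand of the gene. They are shown because the motif was in a larger share of the members than of all genes with a window. Capitals mark the motif, and positions count the first capital from the start, with 1 as the first transcribed base and -1 as the base before it.
Bbs1, chr19:4906605-4906634, minus strand, first capital at 2: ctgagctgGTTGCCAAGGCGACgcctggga
Bbs4, chr9:59353464-59353493, minus strand, at 24: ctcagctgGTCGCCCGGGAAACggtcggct
Bbs7, chr3:36613489-36613518, minus strand, at -121: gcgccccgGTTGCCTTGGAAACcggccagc
Ift22, chr5:136908079-136908108, plus strand, at -63: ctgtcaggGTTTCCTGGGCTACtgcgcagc
Ift22, chr5:136908109-136908138, plus strand, at -33: tgttcccgGTCGCCGTGGAAACtgaccagc
Ift57, chr16:49699199-49699228, plus strand, at -87: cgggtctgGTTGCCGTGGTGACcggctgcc
Mks1, chr11:87853183-87853212, plus strand, at -24: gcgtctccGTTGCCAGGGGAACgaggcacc
Tctn1, chr5:122264411-122264432, minus strand, at 37: ctgtgactGTTGCCCGGGCAAC
Tctn2, chr5:124598679-124598708, plus strand, at -62: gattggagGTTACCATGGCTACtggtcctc

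Of these 9 matches 6 lie before the start and 3 after it, and the Tctn1 stretch ends where its window ends. The 8 genes with the motif came from the BBSome (3), IFT-B (2) and the transition zone (3). Their log2 fold changes ran from -0.16 (Bbs4) to 0.06 (Ift22), with 3 higher and 5 lower, beside 10 higher and 17 lower among the 27 members whose window lacked it. Their levels ran from 2.40 to 7.71 CPM per kb, with a median of 3.03, beside a median of 7.46 CPM per kb for those 27. Only GTNNCC and GGNNAC exactly 2 letters apart were counted as the motif. The Tctn3 window, among those 27, holds GTTGCC and GGTAAC closer together. A GLI motif, GACCACCCA searched on both strands, was in the window of 0 of the 35 members and of 78 genes in all (0.289%), and these windows say nothing on GLI binding elsewhere. Of the 6 RFX factors listed, Rfx1 stood at 37.7 to 50.3 CPM, Rfx7 at 24.4 to 33.1, Rfx2 at 13.03 to 33.1 and Rfx5 at 12.4 to 17.7 CPM. Rfx3 varied from 2.16 CPM in SmoM2 library 1 to 13.7 CPM in SmoM2 library 3, Rfx4 was at 0 in all 8 libraries, and none of the 5 tested differed between genotypes at an unadjusted p under 0.05.

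IFT-B is the larger IFT complex and carries tubulin and other cargo outwards. Of its 11 members 4 had a higher and 7 a lower fitted value in SmoM2 cells, with a median log2 fold change of -0.0025 and log2 fold changes from -0.20 (Ift46) to 0.06 (Ift22). Ift88, whose loss removes the cilium, stood at 12.7, 16.2, 15.2 and 15.8 CPM in the control libraries and at 15.0, 12.8, 13.2 and 13.7 CPM in the SmoM2 libraries. The genotypes overlapped, with the lowest of the 8 values in control library 1, and the log2 fold change was -0.13 (95% interval -0.38 to 0.12). Ift20 had 30.7, 29.1, 26.8 and 32.8 CPM in control and 34.9, 29.2, 27.8 and 27.3 CPM in SmoM2 libraries, so that its highest value was in a SmoM2 mouse and its lowest in a control. Its log2 fold change was -0.0025 (-0.25 to 0.24), a sign that depended on the normalisation.

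Ift52, a core subunit that holds IFT-B together, was the member whose genotypes did not overlap. It had 17.7, 17.2, 17.5 and 17.2 CPM in control and 15.8, 14.3, 16.7 and 16.5 CPM in SmoM2 libraries. Every SmoM2 value was below every control value, but the gap was small, since the lowest control (17.2) and the highest SmoM2 value (16.7) differed by less than the spread within the SmoM2 group. The log2 fold change was -0.14 (-0.34 to 0.07; edgeR unadjusted p = 0.16). Ift46, known for carrying dynein arm cargo, had the lowest log2 fold change of the complex, with 33.9, 34.4, 29.0 and 37.9 CPM in control and 31.6, 29.6, 32.0 and 24.0 CPM in SmoM2 libraries. SmoM2 library 4 was the lowest and control library 4 the highest, the other 6 lay between 29.0 and 34.4 CPM, and the log2 fold change was -0.20 (-0.48 to 0.07). By the fitted variation between mice the most even member of the complex was Ift172, a peripheral subunit that acts at the turnaround at the tip, with 63.5 ± 1.46 CPM in control cells beside 66.1 ± 4.45 CPM in SmoM2 cells (SD, n = 4 each). The remaining IFT-B genes, Ift22, Ift27, Ift57, Ift74, Ift80 and Ift81, had log2 fold changes between -0.11 and 0.06.

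IFT-A is needed for the return journey and for bringing membrane receptors in. Its 3 members split, with Ift122 at a log2 fold change of 0.09 (-0.13 to 0.31) and Ift140 at 0.09 (-0.14 to 0.32), both higher in SmoM2 cells without passing the test, and Ift43 lower. Ift43 had 13.2, 13.6, 13.99 and 14.7 CPM in control and 11.6, 10.5, 14.03 and 12.7 CPM in SmoM2 libraries. Of the 4 SmoM2 values 3 lay below all the controls, SmoM2 library 3 lay among them, and the log2 fold change was -0.18 (-0.44 to 0.08).

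The 5 motor genes were also split, with 3 higher and 2 lower. Kif3a, a motor subunit of kinesin-2, had 22.8, 27.7, 29.1 and 25.8 CPM in control and 26.3, 21.0, 24.4 and 24.2 CPM in SmoM2 libraries. The genotypes overlapped, and the log2 fold change was -0.14 (-0.38 to 0.11), while that of its partner subunit Kif3b was 0.10 (-0.14 to 0.34) and that of the adaptor Kifap3 0.01 (-0.18 to 0.19). Dync2h1, the dynein-2 heavy chain, had 27.0, 35.1, 33.5 and 25.4 CPM in control and 30.7, 35.1, 30.2 and 30.3 CPM in SmoM2 libraries. All 4 SmoM2 values fell inside the control range, and the log2 fold change was 0.06 (-0.22 to 0.34). Dync2li1, its light intermediate chain, had 18.02, 21.9, 21.7 and 19.1 CPM in control and 15.6, 18.2, 20.3 and 15.3 CPM in SmoM2 libraries. SmoM2 libraries 1 and 4 were below all controls and the other 2 were among them, with a log2 fold change of -0.22 (-0.50 to 0.06). It was the largest difference among the motor genes.

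The BBSome is a coat complex that carries receptors, Smoothened among them, out of the cilium, and its loss causes Bardet-Biedl syndrome. All 6 BBSome members had a lower fitted value in SmoM2 cells, with a median log2 fold change of -0.08 and none at an unadjusted p under 0.05. The values were Bbs5 at -0.21, Bbs4 at -0.16, Bbs9 at -0.09, Bbs2 at -0.06, Bbs1 at -0.03 and Bbs7 at -0.03, and every interval held 0. The 6 share the same 8 libraries, so they are not independent of each other. The split was 5 lower and 1 higher when control library 1, control library 3, SmoM2 library 2 or SmoM2 library 4 was left out. Of 5 further BBSome-related genes (Ttc8, Bbip1, Mkks, Arl6 and Lztfl1), 1 was higher and 4 lower, again with none at an unadjusted p under 0.05. Bbs9, the most highly expressed member, had 30.4, 24.9, 27.2 and 28.1 CPM in control and 27.4, 27.4, 25.8 and 23.0 CPM in SmoM2 libraries. The lowest value was in SmoM2 library 4 and the next lowest in control library 2, and the log2 fold change was -0.09 (-0.31 to 0.12). Arl6, the GTPase that recruits the BBSome to membranes, came nearest to the threshold among the related genes. Its genotypes did not overlap, with 9.46 to 10.4 CPM in control and 8.17 to 8.93 CPM in SmoM2 libraries, a log2 fold change of -0.19 (-0.43 to 0.04) and an edgeR unadjusted p of 0.098. Of 73 cilium genes outside the members, 3 (4.11%) had no overlap, Arl6, Ahi1 and Cep131, against 2.44% of all genes tested.

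Bbs10 and Bbs12 encode chaperonin-like proteins that help assemble the BBSome, and they were the members with the least data. Bbs10 rested on 6.80 to 53.4 fragments per library, with 1.06, 0.439, 0.370 and 2.26 CPM in control and 0.895, 0.559, 1.83 and 0.710 CPM in SmoM2 libraries. The highest and the lowest of these values were both controls, and the interval of the log2 fold change, -1.49 to 1.39, holds a 2-fold change in either direction. Its fitted variation between mice, 62.8%, was also the highest of the members. Bbs12, on 43.0 to 124 fragments, had 2.98, 3.08, 2.68 and 5.26 CPM in control and 2.92, 2.45, 3.30 and 2.88 CPM in SmoM2 libraries. Control library 4 stood apart and the other 7 lay between 2.45 and 3.30 CPM. The log2 fold change was -0.28 (-0.84 to 0.29), and it was -0.01 without control library 4.

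The transition zone closes the base of the cilium and holds the tectonic and Meckel syndrome proteins. It had 8 members, 3 higher and 5 lower, and the widest span of log2 fold changes of any role, from -0.33 (Cc2d2a) to 0.35 (Tctn3). B9d1, a small membrane-associated subunit and the most highly expressed of the role per kb, had 7.47, 7.67, 8.72 and 7.39 CPM in control and 6.18, 8.36, 8.10 and 6.87 CPM in SmoM2 libraries. SmoM2 libraries 1 and 4 were the lowest of the 8, with a log2 fold change of -0.08 (-0.41 to 0.24). Cc2d2a, a coiled-coil protein that anchors the complex, varied more than any other member above 5 CPM except Mks1 by the fitted measure, with 44.3, 73.8, 62.9 and 39.8 CPM in control and 35.1, 40.5, 50.1 and 49.4 CPM in SmoM2 libraries. Control libraries 2 and 3 were above all others while control libraries 1 and 4 lay among the SmoM2 values, and the log2 fold change was -0.33 (-0.82 to 0.15). Without control library 2 it was -0.17, and without control library 4 it was -0.46 with an edgeR unadjusted p of 0.048. The other members of the role, Tctn1, Tctn2, Tmem67, Mks1 and Rpgrip1l, had log2 fold changes between -0.13 and 0.05.

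Tctn3, a tectonic of the transition zone required for Hedgehog signalling, was the member with the largest difference. It had 15.4, 12.6, 13.1 and 12.7 CPM in control and 19.4, 17.8, 13.7 and 17.7 CPM in SmoM2 libraries. The 3 SmoM2 libraries 1, 2 and 4 were above every control, and SmoM2 library 3 lay below control library 1. The log2 fold change was 0.35 (0.05 to 0.65; edgeR unadjusted p = 0.028, adjusted p = 0.9999). Leaving out any library other than control library 1 or SmoM2 library 3 took the unadjusted p to between 0.060 and 0.083, and over all alternatives it ranged from 0.0050 to 0.083. In the authors' deposited table Tctn3 had a log2 fold change of 0.35 and a p of 0.157, the smallest p of any member there.

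Tctn3 starts 133 bp from the start of Entpd1, which runs the other way and encodes CD39, an enzyme that breaks down extracellular ATP. The 132 bases between the starts (chr19:40612234-40612365, GRCm38, written on the minus strand, the strand of Tctn3) are shown because this short interval is all that separates the genes. They hold 11 CpG pairs, marked in capitals, and are 61.4% G or C.
Entpd1 to Tctn3: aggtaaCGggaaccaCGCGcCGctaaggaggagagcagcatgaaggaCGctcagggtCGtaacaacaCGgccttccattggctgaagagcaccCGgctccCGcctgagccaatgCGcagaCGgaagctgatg

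Entpd1 had 60.4, 52.4, 61.6 and 48.3 CPM in control and 88.9, 86.5, 75.3 and 114 CPM in SmoM2 libraries. Every SmoM2 value was above every control value. The log2 fold change was 0.71 (0.39 to 1.03), with an adjusted p of 0.642 by edgeR and of 0.0092 by DESeq2, so that the call on Entpd1 rests on the tool. SmoM2 library 3 was the lowest of the SmoM2 libraries for both genes, but the highest libraries differed. For Tctn3 they were SmoM2 library 1 (19.4 CPM) and, among the controls, control library 1 (15.4 CPM). For Entpd1 they were SmoM2 library 4 (114 CPM) and control library 3 (61.6 CPM). Because Entpd1 separates by genotype, no correlation over all 8 libraries is given for this pair. Entpd1 was looked up because of its position beside Tctn3, after the values of Tctn3 were known.

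**Figure D3:**
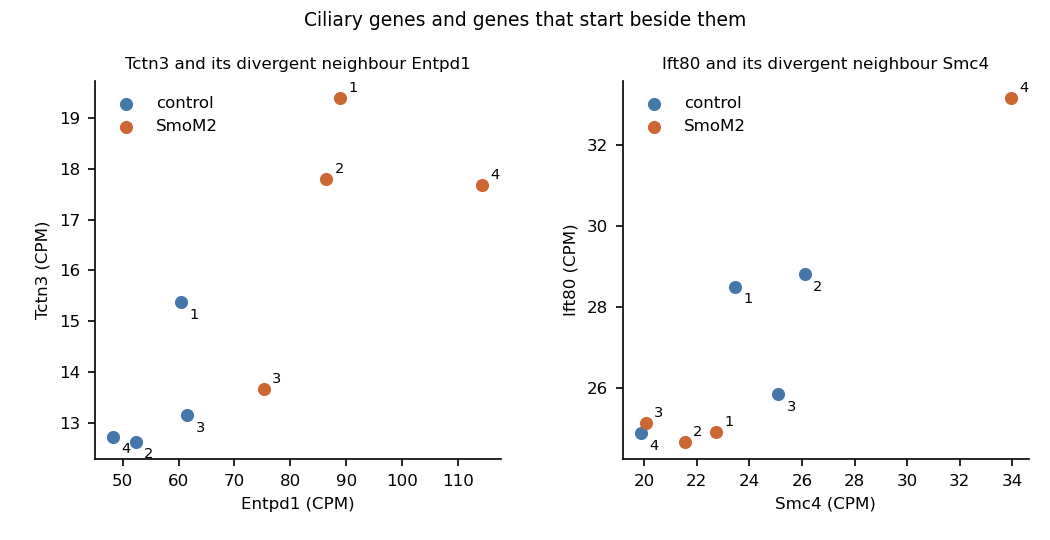
CPM of 2 ciliary genes against the gene that starts beside them on the other strand, with 1 point per library, control in blue, SmoM2 in orange and the library number beside each point. On the left, SmoM2 libraries lie to the right of all controls on the Entpd1 axis and 3 of the 4 lie above them on the Tctn3 axis. On the right, SmoM2 library 4 has the highest Smc4 and Ift80 values.

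In all, 13 members had another gene starting within 1000 bp on the other strand, and for 8 of them that gene was protein coding. Ift80, an IFT-B subunit, starts 168 bp from Smc4, which encodes a condensin subunit needed for mitosis. Ift80 had 28.5, 28.8, 25.9 and 24.9 CPM in control and 24.9, 24.7, 25.1 and 33.2 CPM in SmoM2 libraries. SmoM2 library 4 was the highest for Ift80 and also for Smc4, at 33.9 CPM against 19.9 to 26.1 CPM in the other libraries. It also had the highest sum of 11 cell cycle markers, 136 CPM against 63.4 to 119 CPM elsewhere, whose part in the Ift80 value was not tested. Over 8 libraries Pearson's r of Ift80 with Smc4 was 0.918 and Spearman's rho 0.857. Exact permutation p-values were 0.0065 and 0.011, or 0.052 and 0.086 after Benjamini-Hochberg adjustment over 8 such relations, so the relation did not pass the correction. Without the 2 libraries farthest from the median of Smc4, r was 0.673. Each genotype alone has 4 libraries, and the relation was not tested within genotypes. For the other 6 such neighbours whose genotypes overlapped, r ran from -0.596 (Ift122 with Mbd4) to 0.361 (Rpgrip1l with Fto), with adjusted permutation p-values for r of 0.43 or more.

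Evc and Evc2 encode the membrane complex at the base of the cilium that passes the signal from Smoothened to the Gli proteins, and their loss causes Ellis-van Creveld syndrome. They lie head to head on chr5 with 1605 bp between their starts and were among the most highly expressed members. Evc had 72.6, 87.4, 91.6 and 70.5 CPM in control and 76.5, 86.4, 84.0 and 80.5 CPM in SmoM2 libraries. The SmoM2 values all lay inside the control range, with a log2 fold change of 0.02 (-0.21 to 0.26). Evc2 had 90.1, 84.99, 92.5 and 78.0 CPM in control and 84.0, 93.4, 82.7 and 84.6 CPM in SmoM2 libraries. The genotypes overlapped, and the log2 fold change was -0.0040 (-0.19 to 0.18), with a sign that changed with DESeq2's size factors. Over the 8 libraries r between Evc and Evc2 was 0.547 and rho 0.595, with exact permutation p-values of 0.16 and 0.13 (0.43 and 0.24 after adjustment over the same 8 relations), and r was 0.115 without the 2 libraries farthest from the median of Evc2. For both genes a change of 1.5-fold in either direction lies outside the 95% interval.

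The last group brings membrane proteins into the cilium and sets its lipids. Arl13b, a GTPase of the ciliary membrane, had 35.8, 53.8, 56.1 and 39.2 CPM in control and 40.5, 53.1, 45.5 and 57.3 CPM in SmoM2 libraries. Both genotypes held high and low libraries, and the log2 fold change was 0.09 (-0.31 to 0.49). Tulp3, the adaptor that carries G protein-coupled receptors such as Gpr161 into the cilium, had 43.7, 50.4, 43.0 and 46.2 CPM in control and 47.4, 52.6, 48.6 and 43.3 CPM in SmoM2 libraries. The values overlapped, with a log2 fold change of 0.07 (-0.13 to 0.26). Inpp5e, the phosphatase that keeps the ciliary membrane low in PI(4,5)P2, had 23.9, 34.2, 24.0 and 25.4 CPM in control and 24.0, 22.7, 28.8 and 29.2 CPM in SmoM2 libraries. Control library 2 was the highest, the other controls lay inside the SmoM2 range, and the log2 fold change was -0.04 (-0.37 to 0.29). Of the exonic bases of Inpp5e 21.1% overlap an exon of Pmpca on the other strand, and 27.5% of those of Tctn1 overlap Hvcn1. Reads there may be split between the genes, and the other 38 members had less overlap or none.

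Variation between mice of the same genotype was low for most members. The fitted coefficient of variation between mice had a median of 15.8% over the members, beside 27.3% over all genes tested and 17.8% over genes averaging at least 5 CPM. From the libraries directly, the median coefficient of variation was 8.35% in control and 10.8% in SmoM2 cells, beside 13.6% and 12.3% for genes averaging at least 5 CPM. For the 37 members at that level the fitted median was 15.7%. Their medians from the libraries were 7.87% in control and 9.33% in SmoM2 cells. Across all 8 libraries 37 members varied by less than 2-fold between the lowest and the highest library, and 30 by less than 1.5-fold. The exceptions to 2-fold were Bbs10 at 6.09-fold, Bbs12 at 2.14-fold and Cc2d2a at 2.10-fold. Summed over the 40 members the level was 953 to 1055 CPM in control and 959 to 1003 CPM in SmoM2 libraries, and their mean log2 CPM was 4.18 ± 0.03 and 4.15 ± 0.05 (SD, n = 4 each).

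**Figure D4:**
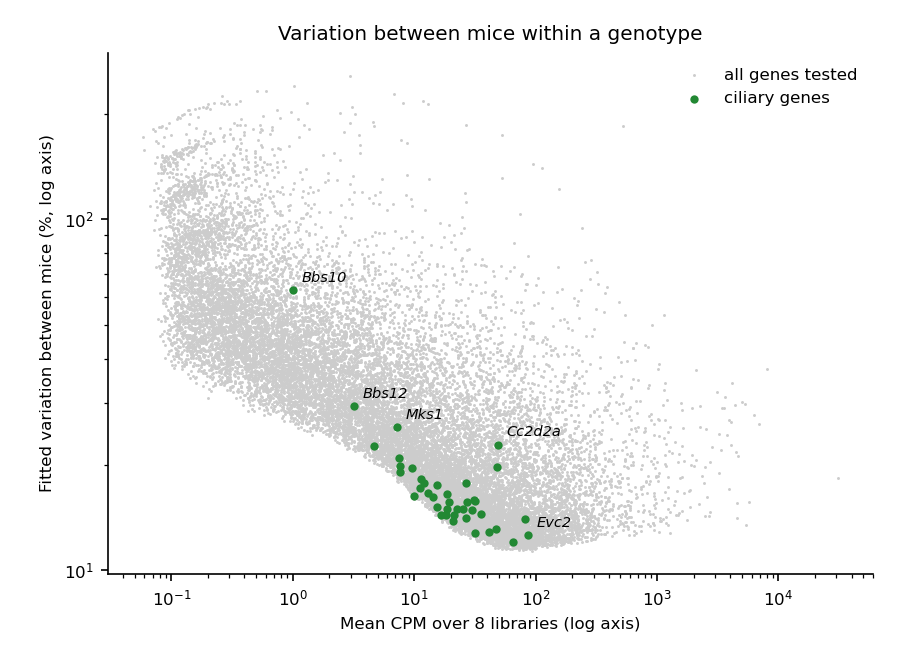
Fitted variation between mice within a genotype (percent, log axis) against mean CPM over 8 libraries (log axis), with every tested gene in grey and the 40 ciliary genes in green. Most green points lie along the lower edge of the grey cloud at their level. Bbs10, Bbs12, Mks1 and Cc2d2a lie above the other members near their level.

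The rest of the cilium programme gave similar values. In 5 lists with 73 further cilium genes, all of them tested, 36 were higher and 37 lower in SmoM2 cells, 0 were at an unadjusted p under 0.05, and the median log2 fold change was -0.01. Among 15 other IFT and motor genes Kif17, an accessory kinesin, had the smallest p, with a log2 fold change of -0.73 (-1.61 to 0.15) at 0.467 to 2.14 CPM. Among 17 other transition zone and inversin genes it was Ahi1, a Joubert syndrome gene, with 19.1 to 21.4 CPM in control and 21.8 to 26.4 CPM in SmoM2 libraries and a log2 fold change of 0.20 (-0.01 to 0.41). Among 20 basal body and ciliogenesis genes Cep131 and Rab3ip came first, with log2 fold changes of -0.21 (-0.45 to 0.03) and -0.36 (-0.78 to 0.05). Among 16 regulators of Hedgehog trafficking in the cilium the first were Arrb1, at -0.45 (-1.07 to 0.18), and Gpr161, a receptor that restrains the pathway, at 0.23 (-0.20 to 0.66). The 8 genes of cilium disassembly split into 4 higher and 4 lower.

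Motile cilia of airway epithelium use many of the same IFT genes, so markers of multiciliated cells were read in the same libraries. Of 22 such markers 16 passed the expression filter. Mcidas, a switch of the multiciliated fate, was at 0 in all 8 libraries, and Foxj1, its main transcription factor, stood at 0.261 to 1.21 CPM. Of the 21 markers other than Tppp3, 14 were below 1 CPM in every library, and their sum was 23.9 to 27.1 CPM in control and 19.1 to 27.1 CPM in SmoM2 libraries. Tppp3, which stromal cells also express, ranged from 97.7 to 269 CPM in control libraries and from 139 to 444 CPM in SmoM2 libraries. Of the 16 tested markers 5 were higher and 11 lower in SmoM2 cells, with a median log2 fold change of -0.23. At an unadjusted p under 0.05 there was 1 of the 16, against 3.75% of all genes tested. It was Tekt2, a tektin of the axoneme, with a log2 fold change of -0.90 (-1.62 to -0.18; edgeR, adjusted p = 0.9999).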

How the data were processed

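RNA of sorted GLI2+ lung stromal cells was sequenced in 8 libraries, 4 control and 4 SmoM2. FastQC, HISAT, StringTie and DESeq are listed with mm10 in the submitters' processing notes, with no version or role. The authors deposited expected counts per Ensembl gene as whole numbers, made by steps not given in the sources used here. In every library 5 was the commonest value above 0, and a fragment was assumed to add 5 units. Per the file headers, the authors' second table gives their normalised mean signal per group, its ratio (fold change), the log2 of that ratio and p-values. Column names show the group and a number but not the animal, and the titles number 8 different mice.

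The count test was edgeR 4.0.16 in R 4.3.3 (quasi-likelihood, robust dispersion, TMM factors, filterByExpr, Benjamini-Hochberg adjustment over all 20162 genes, threshold 0.05), with genotype as the sole term. CPM values use TMM library sizes, and intervals are 95% intervals of that fit. Lengths, coordinates and neighbours came from GENCODE M21 (mm10), promoters from RefSeq (GRCm38.p6). Symbols matched 49326 identifiers. Alternatives were DESeq2 1.42.0, limma 3.58.1 (voom), other size factors, filters, counts divided by 5, sex as a covariate and leaving out each library.

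Members and lists were chosen with earlier results of these data known. Given with all values were the highest member per kb of each role, members at an unadjusted p under 0.05 or with no overlap, the 4 largest differences above 5 CPM, and Evc, Evc2, Arl13b, Tulp3, Inpp5e, Ift88, Kif3a and Dync2h1. Other lists name up to 2 genes with the smallest p. Ift80, Bbs10, Ift172, Entpd1, Smc4 and other genes outside the rule were picked after their values were seen.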

Additional observations from a re-analysis of the deposited data

Results flagged for a closer look

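Within a genotype, 7 of the 80 sets of 4 values (40 members in 2 genotypes) held a library far from the other 3 by Dixon's criterion, where chance gives about 1 in 20. Ift80 had 33.2 CPM in SmoM2 library 4, against 24.7 to 25.1 CPM in the other SmoM2 libraries. Kif3b had 36.6 CPM in control library 1, against 33.4 to 33.6 CPM in the other controls. Kifap3 had 44.2 CPM in control library 2, against 40.3 to 41.0 CPM. Dync2h1 had 35.1 CPM in SmoM2 library 2, against 30.2 to 30.7 CPM. Bbs4 had 6.94 CPM in control library 1, below the 8.24 to 8.48 CPM of the other controls. Bbs12 had 5.26 CPM in control library 4, against 2.68 to 3.08 CPM. Inpp5e had 34.2 CPM in control library 2, against 23.9 to 25.4 CPM. The 7 were spread over 5 libraries.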

How the results depend on the processing

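No member was called under any of the 15 alternatives. The count of all genes called was 67 with DESeq2, and 0 to 1 when a library was left out (1 without SmoM2 library 4). The count of members at an unadjusted p under 0.05 was 0 to 2 when a library was left out: 0 without control library 2 or 3 or SmoM2 library 1, 2 or 4, and 2 (Dync2li1 and Tctn3) without SmoM2 library 3. The members' median log2 fold change ran from -0.07 (without SmoM2 library 3) to 0.0016 (without SmoM2 library 4, where 20 were higher and 20 lower). Of 269 values of the 18 members given in full, 248 kept their direction and side of the threshold and 21 changed sign, all of them at 0.0958 or less in absolute log2 fold change. Ift20 turned to 0.0025 with DESeq2 size factors and 0.0034 with DESeq2, and Evc2 to 0.0010 and 0.0024. When a library was left out, Ift20 ran from -0.0914 to 0.0465, Dync2h1 from -0.0138 to 0.136, Evc from -0.0352 to 0.0885, Evc2 from -0.0498 to 0.0277, Arl13b from -0.0166 to 0.192 and Inpp5e from -0.0934 to 0.0958. The cause of these sign changes was not tested. A minimum mean of 5 CPM leaves 37 members, without Bbs5, Bbs10 and Bbs12. No paired analysis was possible because the genotypes share no replicate numbers in the labels. Bbs10 and Bbs12 had the fewest fragments and the widest intervals, and the shares of depth and of variation between mice in that width were not tested.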

Other observations

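Among genes averaging at least 5 CPM, members left out, Dgkb, Acvr2a, Gm13680, Usp11 and Ago4 followed the mean log2 CPM of the 40 members most closely over the 8 libraries, with Pearson's r of 0.977, 0.972, 0.966, 0.963 and 0.962. They were picked as the highest of many correlations, so these values are a description and no test is given. Their log2 fold changes were -0.38, -0.32, -0.16, -0.07 and -0.27. The members shared little with each other, with a median r of 0.033 over their 780 pairs. The mean log2 CPM of Bbs10 and Bbs12 ran from 0.04 in control library 3 to 1.79 in control library 4. That of all 40 members ran from 4.12 in SmoM2 library 2 to 4.23 in SmoM2 library 3. The part of Bbs10 and Bbs12 in these correlations was not tested.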
